A study of Mus musculus with 78 samples.

Results

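The glucocorticoid-responsive genes described here are 7 protein-coding genes chosen by symbol: Nr3c1, Fkbp5, Tsc22d3, Sgk1, Zbtb16, Mt1 and Mt2. They are 7 of 54532 genes in the expression table, of which 22046 are protein-coding, and each symbol matched 1 row. The table holds RNA-seq of cerebral arteries from male wild-type C57Bl6 mice that fed ad libitum (AL) or under intermittent fasting (IF) for 3 months and then had sham surgery or bilateral carotid artery stenosis (BCAS), a narrowing of both carotid arteries that lowers blood flow to the brain. Arteries were taken 1, 7, 14, 21 or 30 days after surgery, which gives 20 groups of surgery, diet and day. There were 78 libraries in all, 4 in each group but for 2 groups of 3: sham IF day 7 and BCAS AL day 1. Day 7 rests on the group labels, since the description of the treatment names the other 4 days only. The labels give neither the fasting schedule nor the age of the mice, the hour of collection or whether IF went on after surgery. Nothing in them says that the libraries of a group came from separate mice, so p-values measure only the spread between libraries, which may be technical.

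Glucocorticoids, chiefly corticosterone in mice, are adrenal hormones that rise before the active phase of the day, with stress and with food restriction. They bind the glucocorticoid receptor, the product of Nr3c1, which leaves its heat shock protein partners, enters the nucleus and acts on genes through glucocorticoid response elements in DNA. Fkbp5 encodes a chaperone partner that lowers the receptor's affinity for hormone and so closes a feedback loop. Tsc22d3 encodes GILZ, an anti-inflammatory leucine zipper protein. Sgk1 encodes a kinase that regulates ion channels and transporters, and Zbtb16 encodes the zinc finger repressor PLZF. Mt1 and Mt2 encode metallothioneins, small cysteine-rich proteins that bind zinc and copper and are induced by metals as well as by glucocorticoids. The vessel wall's smooth muscle and endothelium both contain the receptor.

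Promoter sequence from RefSeq (GRCm38.p6) matched 5 of the 7 genes. The 250 bases before a transcription start are printed below for those genes, 5′ to 3′ on the gene's strand, to show where they match motifs known for the receptor, the metal sensor and the clock. Capitals mark 3 motifs searched on both strands: the glucocorticoid hexamer AGAACA, which reads TGTTCT on the other strand, the metal response core TGCACNC or TGCGCNC, and the E-box CACGTG. For Sgk1, which has 6 RefSeq starts, and Tsc22d3, which has 3, the start shown is one with a glucocorticoid hexamer.
Sgk1, start 5, chr10:21993640-21993889, plus strand: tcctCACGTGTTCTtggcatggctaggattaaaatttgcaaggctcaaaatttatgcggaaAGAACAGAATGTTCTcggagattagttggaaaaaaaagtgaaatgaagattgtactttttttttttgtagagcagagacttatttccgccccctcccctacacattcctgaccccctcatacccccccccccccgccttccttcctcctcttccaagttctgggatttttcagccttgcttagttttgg
Tsc22d3, start 2, chrX:140600523-140600772, minus strand: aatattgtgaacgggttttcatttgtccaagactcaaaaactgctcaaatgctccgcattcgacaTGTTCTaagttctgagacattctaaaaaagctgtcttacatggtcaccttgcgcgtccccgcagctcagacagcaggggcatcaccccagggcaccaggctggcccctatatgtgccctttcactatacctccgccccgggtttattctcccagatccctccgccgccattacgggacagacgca
Fkbp5, chr17:28486150-28486399, minus strand: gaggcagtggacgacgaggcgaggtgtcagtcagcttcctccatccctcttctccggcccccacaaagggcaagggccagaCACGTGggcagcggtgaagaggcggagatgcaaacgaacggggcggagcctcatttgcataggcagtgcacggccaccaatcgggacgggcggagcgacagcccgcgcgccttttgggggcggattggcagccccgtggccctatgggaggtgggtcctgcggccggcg
Mt1, chr8:94178839-94179088, plus strand: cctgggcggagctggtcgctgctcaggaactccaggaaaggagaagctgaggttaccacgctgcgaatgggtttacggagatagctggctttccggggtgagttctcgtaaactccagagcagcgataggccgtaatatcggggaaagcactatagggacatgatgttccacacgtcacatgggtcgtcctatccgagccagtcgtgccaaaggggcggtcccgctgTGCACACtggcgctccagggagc
Mt2, chr8:94172368-94172617, plus strand: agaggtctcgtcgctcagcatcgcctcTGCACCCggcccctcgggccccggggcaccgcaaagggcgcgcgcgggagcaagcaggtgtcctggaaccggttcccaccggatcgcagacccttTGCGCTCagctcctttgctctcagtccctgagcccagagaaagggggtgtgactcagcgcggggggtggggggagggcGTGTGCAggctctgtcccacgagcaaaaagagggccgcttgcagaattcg

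The Sgk1 window held the complete palindrome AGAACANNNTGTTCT, which starts 189 bases before the transcription start, and a further hexamer at position 9 that overlaps an E-box at position 5. Of 32851 promoter windows of 300 bases (these 250 bases and 50 after the start) from 27025 genes, 3 windows (0.00913%) held that palindrome and 19.0% held at least 1 hexamer. The Tsc22d3 window held 1 hexamer, at position 66. Both windows were picked from several starts for their hexamers. Of the other starts, Sgk1 starts 1 and 4 held a hexamer, while Sgk1 starts 2, 3 and 6 and Tsc22d3 starts 1 and 3 held none. The palindrome was in none of these other starts. In Fkbp5 the printed stretch held an E-box, found in 7.15% of all windows, 169 bases before the start, and no hexamer. Mt2 held metal response cores at positions 28, 123 and 201, with another at 255 in the 50 bases after the start, and 0.518% of all windows held 4 or more cores. Mt1 held 1 core before the start, at position 228, and further cores at 253 and 271. A match describes letters in these windows and is not evidence of binding, and elements farther from the start were not searched.

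Libraries held 14601572 to 25944175 fragments, and 1 FPKM (the fragments per kilobase of gene, scaled to depth) stood for 15.1 to 26.8 fragments per kilobase. Smooth muscle markers summed to 2064 to 8624 FPKM over the 78 libraries and endothelial markers to 484 to 1015, while oligodendrocyte markers summed to 14.4 to 199, neuron markers to 1.15 to 14.8 and red blood cell markers to 25.8 to 3019. In 3 libraries, BCAS AL day 1 replicate 2 and replicates 2 and 4 of sham AL day 7, more than 0.2% of fragments fell in genes under 300 bases. In these whole-tissue samples, fewer cells of a type and less RNA per cell cannot be told apart.

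Levels of the 7 genes ranged from near 0 for Mt2 to over 100 FPKM for Mt1 in every library. Mt1 was the most abundant per length, at 106 to 425 FPKM over the 78 libraries with a median of 250. Tsc22d3 followed at 19.7 to 60.3 FPKM (median 30.0), then Sgk1 at 14.9 to 36.5 (median 21.0), Nr3c1 at 8.42 to 18.0 (median 11.2) and Fkbp5 at 5.77 to 28.6 (median 10.1). Zbtb16 was low, at 0.147 to 3.36 FPKM (median 0.770, or 16 to 290 fragments), and reached 1 FPKM in 25 libraries. Mt2 was at or near background: 0 to 16 fragments, a median of 1, and 34 libraries at 0. Mt1, which starts 5513 bases downstream on the same strand, held 2158 to 10862 fragments in the same libraries. Mt2 therefore did not pass the filter for testing (3 libraries with 1 FPKM or more), which the other 6 genes passed.

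**Figure D1:**
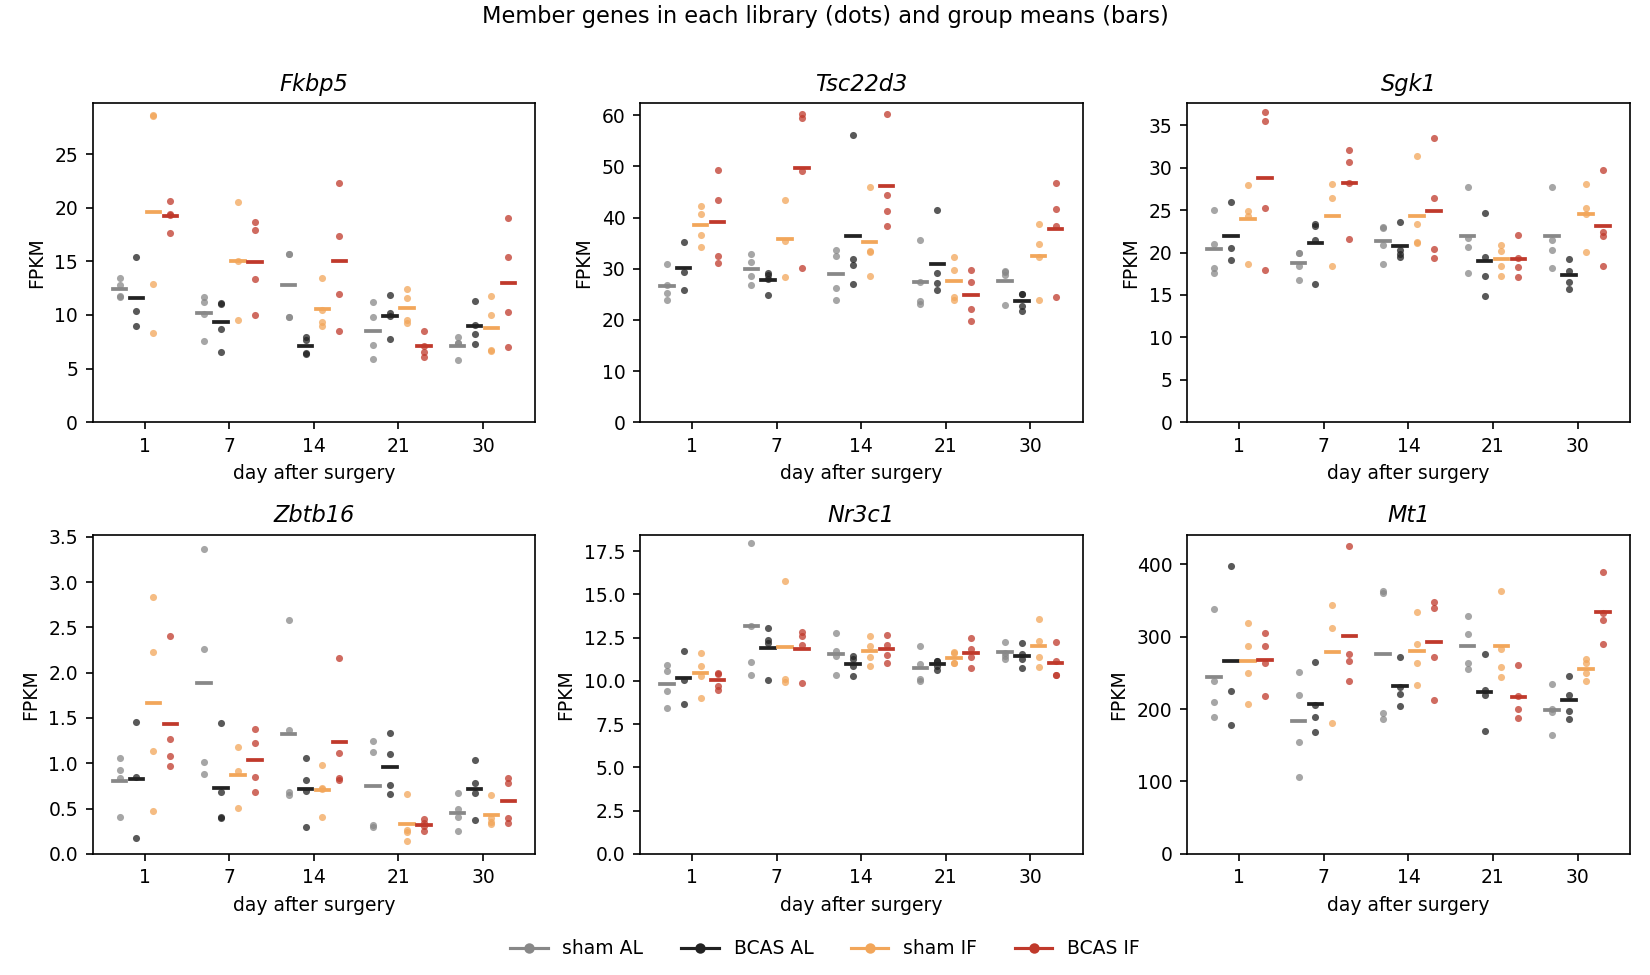
FPKM (vertical axes) of Fkbp5, Tsc22d3, Sgk1, Zbtb16, Nr3c1 and Mt1 against day after surgery, with 1 dot per library, colours for the 4 arms of surgery and diet, and bars for group means. Fkbp5 and Tsc22d3 of BCAS IF fall to their lowest means on day 21, and Nr3c1 varies little.

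Across the 20 groups and among the 6 tested genes, Zbtb16 varied the most, with the highest group mean 5.85 times the lowest, and Nr3c1 the least, with 1.34 times. The ratio was 2.77 for Fkbp5, 2.10 for Tsc22d3, 1.83 for Mt1 and 1.66 for Sgk1. IF groups filled the first 5 places in the order of group means for Fkbp5, Tsc22d3 and Sgk1. For Fkbp5 those were sham IF day 1 (19.6 ± 10.5 FPKM, SD, n = 4), BCAS IF day 1 (19.2 ± 1.25), sham IF day 7 (15.0 ± 5.53, n = 3), BCAS IF day 14 (15.0 ± 6.04) and BCAS IF day 7 (15.0 ± 4.04). BCAS IF day 21, at 7.09 ± 1.05 FPKM, was the lowest of the 20. In none of these 6 genes were any of the 19 neighbouring pairs in that order more than 1 SD apart.

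The first comparison was between diets. Averaged over the 5 days, 4 of the 6 tested genes were higher under IF than under AL after BCAS (Fkbp5, Tsc22d3, Sgk1 and Mt1), by 1.21 to 1.36 times, and 1 of 6 (Tsc22d3) after sham surgery. No member fell. Tests used limma on log2(FPKM + 1) over all 78 libraries, with Benjamini-Hochberg adjustment over 15707 genes, and a gene was called at an adjusted p below 0.05. On this scale a difference understates the change of low genes such as Zbtb16. Of all genes tested, 23.1% were called in the BCAS comparison (11.2% higher under IF) and 23.7% in the sham comparison (11.8% higher). The median difference over the 6 members was 0.29 after BCAS and 0.19 after sham surgery, against 0.0024 and 0.0064 over all genes. Some cell type markers differed by diet as well, in both directions. Of 7 macrophage and microglia markers, 3 were higher under IF after sham surgery and 2 after BCAS, among them Cd68 (0.28 and 0.27). Of 7 endothelial markers, 1 was lower after sham surgery and 2 after BCAS, among them Flt1 (−0.23 and −0.25). The endothelial markers Pecam1 (0.05 and 0.03) and Vwf (0.05 and 0.12) had the opposite sign and were not called. The median of the endothelial list was −0.004 after sham surgery and −0.05 after BCAS. Of 6 smooth muscle markers, 1 was called under each surgery, Myocd, which was lower (−0.34 and −0.33). The median of that list was 0.05 after sham surgery and 0.02 after BCAS. Of 5 fibroblast markers, 1 was higher after sham surgery and 2 after BCAS, among them Lum (0.20 and 0.20). The fibroblast markers Col1a1 (−0.14 and −0.09) and Pdgfra (−0.08 and −0.11) had the opposite sign and were not called. Of 6 pericyte markers, 2 were higher after sham surgery and 0 were called after BCAS. The choroid plexus marker Kl was lower under both surgeries (−0.23 and −0.32) and Ttr higher after sham surgery (0.59). The part of these cell types in the members' differences was not tested. Markers of astrocytes, oligodendrocytes, neurons, neutrophils and red blood cells had no gene called by diet. The red blood cell list had a median difference of −0.88 after BCAS and −0.58 after sham surgery, and with a red blood cell or a brain tissue score as a covariate the counts were again 4 and 1.

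Nr3c1, the receptor gene, showed no called difference by diet. Its level over the days was 8.66 to 13.1 FPKM (median 11.1, n = 19) in BCAS AL and 9.49 to 12.8 (median 11.3, n = 20) in BCAS IF. In sham AL it was 8.42 to 18.0 (median 11.2, n = 20) and in sham IF 9.01 to 15.8 (median 11.4, n = 19). The arms overlapped over nearly their whole ranges. IF minus AL was 0.02 ± 0.05 (log2, SE; adjusted p = 0.795, limma) after BCAS and 0.02 ± 0.05 (adjusted p = 0.845, limma) after sham surgery. The highest library was sham AL day 7 replicate 4 at 18.0 FPKM, 1 of the 3 libraries rich in short genes, while the other 3 of that group read 10.4, 13.2 and 11.1.

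Fkbp5, the feedback chaperone, was higher under IF after BCAS. BCAS AL libraries ran from 6.40 to 15.4 FPKM (median 8.96) and BCAS IF libraries from 6.10 to 22.3 (median 14.4), so the ranges overlapped while the upper part of the IF range lay above every AL library. The log2 difference was 0.45 ± 0.12 (SE), 1.36 times, with an adjusted p of 0.0030 in limma, and the IF mean was higher on 4 of 5 days. Without day 14 it was 0.33, with an adjusted p of 0.0761. In sham arteries the 19 IF libraries ran from 6.66 to 28.6 FPKM (median 10.5) against 5.77 to 15.7 (median 9.97) in the 20 AL libraries. That difference, 0.25 ± 0.12, did not pass (adjusted p = 0.108, limma), although the IF mean was higher on 4 of 5 days.

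Day by day, Fkbp5 was called on day 14 after BCAS. The 4 BCAS AL libraries read 7.67, 7.92, 6.45 and 6.40 FPKM and the 4 BCAS IF libraries 8.55, 11.9, 17.4 and 22.3. The log2 difference was 0.91 ± 0.26, 1.88 times (adjusted p = 0.0225, limma). The call was lost, at adjusted p values of 0.0583 to 0.145 in limma, without any 1 of BCAS AL replicates 3 or 4 or BCAS IF replicates 3 or 4 of that day. It was also lost with no filter on low values (adjusted p = 0.0513, limma), with a red blood cell score (0.81, adjusted p = 0.0683, limma) and with the clock score described below (0.08 ± 0.43, adjusted p = 0.991, limma). Sham AL libraries of the same day read 15.7, 15.7, 9.84 and 9.82 FPKM. On day 1 the BCAS IF libraries read 19.3, 17.6, 20.6 and 19.5 FPKM and the 3 BCAS AL libraries 15.4, 10.4 and 8.96. The difference of 0.72 missed the threshold (adjusted p = 0.137, limma). The 4 sham IF libraries of day 1 split into 28.6 and 28.6 FPKM against 12.9 and 8.33, and that group's SD was the largest of the 20 for Fkbp5.

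Tsc22d3, which encodes GILZ, was the member called under both surgeries. It ran from 21.6 to 56.1 FPKM (median 28.0) in BCAS AL and from 19.7 to 60.3 (median 39.9) in BCAS IF. The log2 difference was 0.36 ± 0.09, 1.29 times (adjusted p = 0.00099, limma). In sham arteries it ran from 22.8 to 35.6 FPKM (median 28.0) under AL and from 23.9 to 45.9 (median 33.5) under IF, a difference of 0.25 ± 0.09, 1.19 times (adjusted p = 0.0283, limma). The IF mean was higher on all 5 days after sham surgery and on 4 of 5 after BCAS. The sham call was lost, at adjusted p values of 0.0557 to 0.171, when any of days 1, 7, 14 or 30 was left out, at 0.0668 without the 3 libraries rich in short genes, and at 0.0683 and 0.0545 without sham IF day 7 replicate 2 or day 14 replicate 1 (limma).

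On day 7 after BCAS, the 4 AL libraries read 24.8, 28.8, 28.0 and 29.2 FPKM for Tsc22d3 and the 4 IF libraries 60.2, 59.5, 49.0 and 30.1. Of the IF libraries, 3 lay far above the AL range and 1 just above it. The log2 difference was 0.77 ± 0.19, 1.71 times (adjusted p = 0.0114, limma). The call was lost, at adjusted p values of 0.0536 to 0.0863 in limma, without BCAS AL replicate 1 or BCAS IF replicate 1 or 2 of that day. With the clock score described below it was 0.63 ± 0.24 (adjusted p = 0.442, limma). On day 1 after sham surgery the IF libraries read 36.6, 42.3, 40.6 and 34.3 FPKM and the AL libraries 26.8, 30.9, 23.9 and 25.3. The difference of 0.51 missed the threshold (adjusted p = 0.116, limma). On day 30 after BCAS the IF libraries read 24.4, 46.7, 38.3 and 41.7 FPKM against 25.0, 25.0, 21.6 and 22.8 under AL, and the difference of 0.62 missed it too (adjusted p = 0.0794, limma).

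Sgk1, the kinase, was higher under IF after BCAS on all 5 days. BCAS AL libraries ran from 14.9 to 26.0 FPKM (median 19.5) and BCAS IF libraries from 17.1 to 36.5 (median 22.2). The log2 difference was 0.27 ± 0.08, 1.21 times (adjusted p = 0.0056, limma). In sham arteries the ranges were 16.8 to 27.7 FPKM (median 20.5) under AL and 17.2 to 31.3 (median 23.3) under IF, and the difference of 0.14 ± 0.08 did not pass (adjusted p = 0.183, limma). The 2 highest of all 78 Sgk1 libraries, 36.5 and 35.4 FPKM, were both BCAS IF on day 1, whose other libraries read 25.3 and 17.9.

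Zbtb16, the PLZF repressor gene, showed no called difference by diet. It ran from 0.178 to 1.45 FPKM (median 0.760) in BCAS AL and from 0.253 to 2.40 (median 0.837) in BCAS IF, a difference of 0.08 ± 0.11 (adjusted p = 0.673, limma). In sham arteries it ran from 0.255 to 3.36 (median 0.863) under AL and from 0.147 to 2.84 (median 0.651) under IF, a difference of −0.17 ± 0.11 (adjusted p = 0.286, limma). On day 21 after BCAS the IF libraries read 0.342, 0.388, 0.253 and 0.303 FPKM and the AL libraries 0.662 to 1.33. That difference of −0.56 did not pass (adjusted p = 0.318, limma).

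Mt1, the abundant metallothionein, was higher under IF after BCAS. BCAS AL libraries ran from 168 to 398 FPKM (median 219) and BCAS IF libraries from 188 to 425 (median 274), with a log2 difference of 0.31 ± 0.10, 1.24 times (adjusted p = 0.0178, limma). The sham libraries ran from 106 to 363 FPKM (median 227) under AL and from 181 to 363 (median 264) under IF, and the difference of 0.24 ± 0.10 did not pass (adjusted p = 0.0704, limma). The IF mean was higher on 4 of 5 days under each surgery. On day 30 BCAS IF read 290, 333, 390 and 323 FPKM against 245, 198, 219 and 186 in BCAS AL. Sham IF read 239, 250, 269 and 264 FPKM against 235, 196, 164 and 200 in sham AL. Neither difference passed on its own, at 0.65 (adjusted p = 0.124, limma) after BCAS and 0.37 (adjusted p = 0.402, limma) after sham surgery. The BCAS call over all days was lost when BCAS AL day 1 replicate 2 was left out (0.26, adjusted p = 0.0566, limma). It held without all 3 libraries rich in short genes, of which that is 1 (0.26, adjusted p = 0.0360, limma).

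Mt2 means were 0.242 FPKM in sham AL, 0.101 in BCAS AL, 0.270 in sham IF and 0.205 in BCAS IF, all within a few fragments of 0. On the annotation used here for exons (GENCODE M21), the exons of Gm45774 on the other strand cover 432 of the 588 exonic bases of Mt2 (73.5%) and none of the 1246 of Mt1. Gm45774 itself read 0 to 0.649 FPKM (median 0.177). How fragments over both genes, or shared between the metallothionein paralogs, were counted is not given in the sources used here, so the Mt2 level is uncertain. Mt3, the paralog of neural cells, read 13.8 to 45.3 FPKM, with diet differences of 0.05 after sham surgery and 0.13 after BCAS that did not pass.

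**Figure D2:**
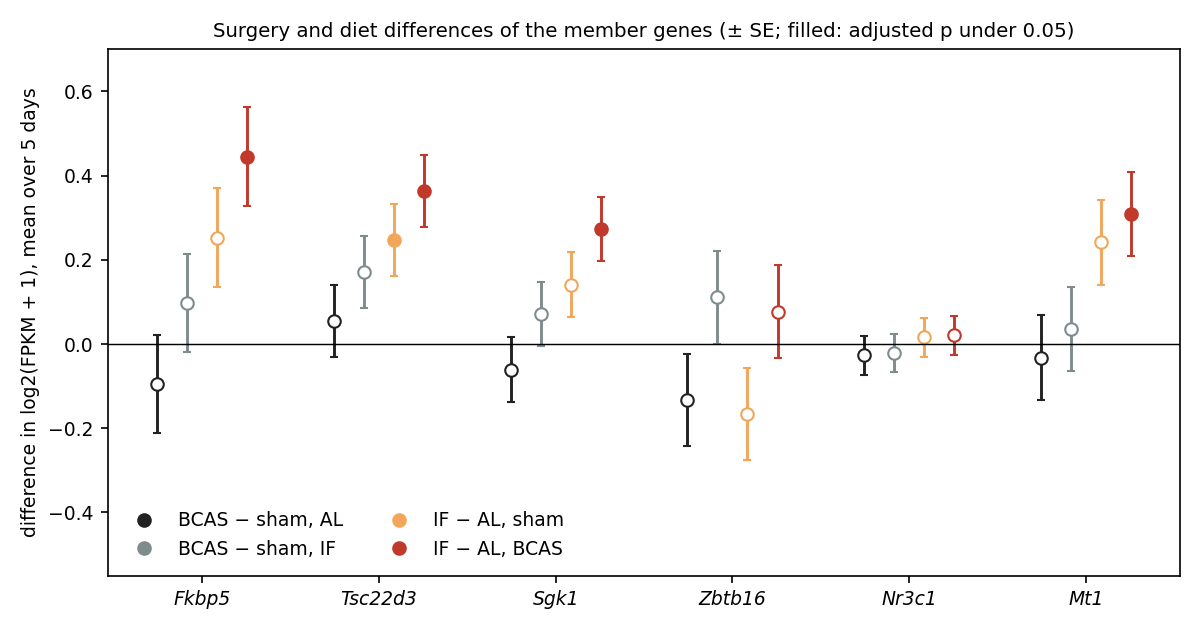
Differences in log2(FPKM + 1) averaged over the 5 days, with SE bars, for the 6 tested genes in 4 comparisons (2 of surgery, 1 for each diet, and 2 of diet, 1 for each surgery); filled points have an adjusted p below 0.05. The filled points are Fkbp5, Tsc22d3, Sgk1 and Mt1 by diet after BCAS and Tsc22d3 by diet after sham surgery.

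Among single days, diet called 0 of 6 members on each of the 5 days after sham surgery, where 3.67%, 9.05%, 4.39%, 0.382% and 4.82% of all genes were called on days 1, 7, 14, 21 and 30. At an unadjusted p under 0.05 in limma, 2, 2, 0, 0 and 0 members passed on those days. So did 2787, 4035, 2807, 1566 and 2782 of the 15707 genes. After BCAS, diet called 0 of 6 on day 1 (4.37% of all genes), 1 of 6 on day 7 (2.25%, with 1.21% higher under IF), 1 of 6 on day 14 (5.67%, with 2.55% higher), 0 on day 21 (0.802%) and 0 on day 30 (1.35%). The unadjusted counts were 1, 4, 1, 1 and 3 members, and 2751, 2127, 2909, 1954 and 2200 of the 15707 genes.

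Transcripts of the circadian clock, which glucocorticoids and feeding time both reset, differed between the diets in the same libraries. All 10 clock genes examined were called under each surgery, 8 higher and 2 lower under IF. Dbp, a clock-driven transcription factor, was 1.89 ± 0.12 higher (log2, SE) after sham surgery and 1.96 ± 0.12 after BCAS, and Arntl, which encodes the clock activator BMAL1, was lower, at −1.06 and −1.29. A clock score, the mean log2(FPKM + 1) of Dbp, Tef, Hlf, Per2, Per3, Nr1d1, Nr1d2 and Ciart, ran from 3.83 to 4.80 in the 39 IF libraries and from 2.68 to 3.71 in 35 AL libraries. The 4 sham AL day 1 libraries, at 3.64 to 4.18, overlapped both and read 12.8, 13.4, 11.7 and 11.7 FPKM of Fkbp5. The highest Fkbp5 level of sham AL, 15.7 FPKM, was on day 14, where clock scores were 3.01 to 3.68. Tsc22d3 of the sham AL day 1 libraries, printed above, lay on both sides of the sham AL median of 28.0 FPKM.

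With the clock score as a covariate, the count of members called by diet went to 0 under both surgeries. Fkbp5 moved from 0.45 to −0.14 ± 0.27 (adjusted p = 0.941, limma) after BCAS and from 0.25 to −0.29 ± 0.25 (adjusted p = 0.746, limma) after sham surgery. Tsc22d3 moved to 0.19 ± 0.21 (adjusted p = 0.874, limma) after BCAS and to 0.09 ± 0.19 (adjusted p = 0.925, limma) after sham surgery. For Sgk1 and Mt1 the differences after BCAS were 0.29 ± 0.18 and 0.42 ± 0.24 and were no longer called, with adjusted p values of 0.727 and 0.680 in limma. Clock score and diet hardly overlap here, and the standard errors were wider than in the fit without the score. The hour of collection and the diet cannot be told apart in this design.

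Within groups, clock score and member levels were not related past the threshold. Over the 78 libraries, each as its deviation from its group mean, Fkbp5 and the clock score had a Pearson r of 0.30 (permutation p = 0.0503, adjusted p = 0.457 over 36 relations) and a Spearman rho of 0.25 (permutation p = 0.0721). Without the 2 libraries farthest from the median of the score, r was 0.34. None of the 36 relations of the 6 members with measures of the libraries passed, the lowest adjusted p being 0.457 for Pearson and 0.343 for Spearman.

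**Figure D3:**
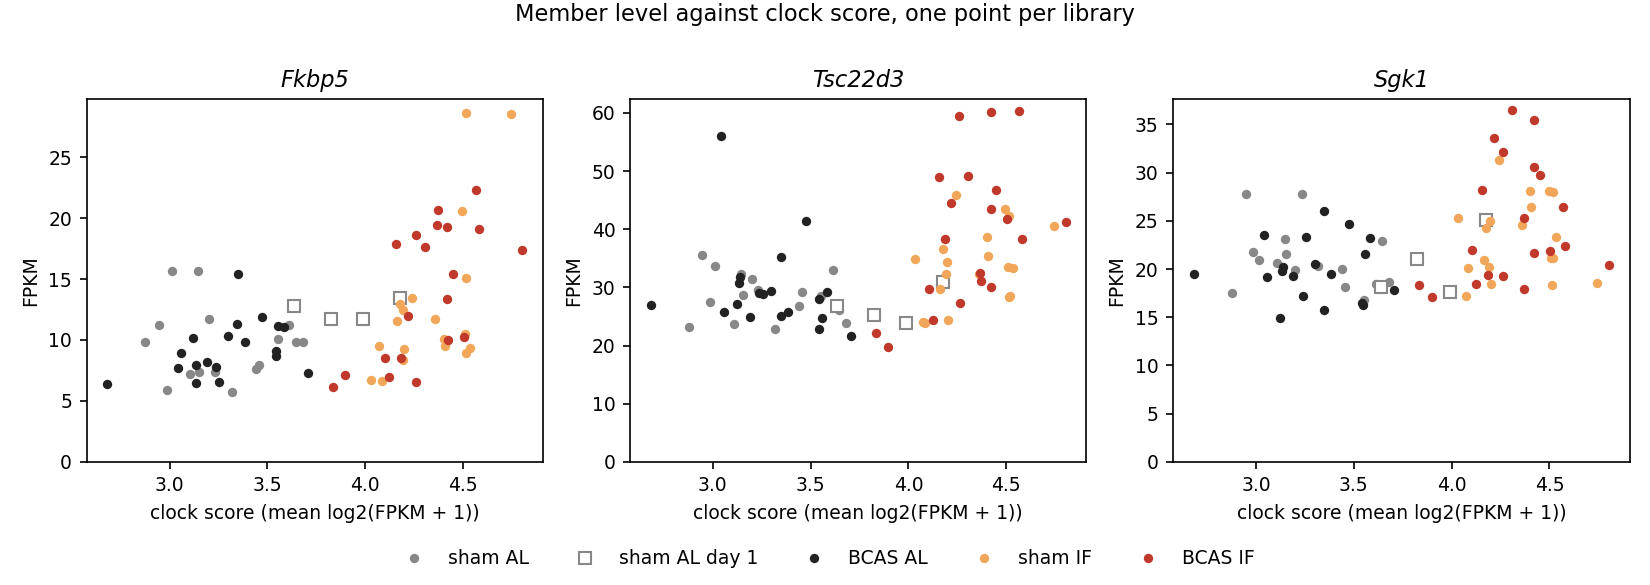
FPKM of Fkbp5, Tsc22d3 and Sgk1 (vertical axes) against clock score (mean log2(FPKM + 1) of 8 clock genes, horizontal axes), 1 point per library, colours for the 4 arms, and open squares for sham AL day 1. IF libraries lie at clock scores of 3.83 and above, and the highest Fkbp5 and Sgk1 values are among them.

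The second comparison was between surgeries. No member was called in either diet, averaged over days or on any single day, also with limma-voom on recovered fragments, and for the averages none passed an unadjusted p under 0.05 in limma. Under AL the mean differences of BCAS minus sham were −0.09 ± 0.12 for Fkbp5, 0.06 ± 0.09 for Tsc22d3, −0.06 ± 0.08 for Sgk1, −0.13 ± 0.11 for Zbtb16, −0.03 ± 0.05 for Nr3c1 and −0.03 ± 0.10 for Mt1 (log2, SE). Under IF they were 0.10 ± 0.12, 0.17 ± 0.09, 0.07 ± 0.08, 0.11 ± 0.11, −0.02 ± 0.05 and 0.04 ± 0.10 in the same order. The largest, Tsc22d3 under IF, had an unadjusted p of 0.0504 in limma and an adjusted p of 0.518. Few genes of any kind were called: 0.987% under AL and 0.758% under IF.

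By day, surgery called 0.376%, 2.63%, 0.337%, 0% and 0.357% of all genes under AL on days 1, 7, 14, 21 and 30, and 0.00637%, 0.153%, 0%, 0% and 0.0891% under IF. Single members passed an unadjusted p under 0.05 in limma on 4 of these 10 diet-days. Of the 15707 genes, 1829, 3150, 1674, 1028 and 1530 passed it under AL, and 590, 1182, 490, 899 and 1775 under IF. Fkbp5 on day 14 under AL read 6.40 to 7.92 FPKM after BCAS against 9.82 to 15.7 in sham, a log2 difference of −0.73 ± 0.26 (adjusted p = 0.226, limma). Fkbp5 on day 21 under IF read 7.15, 6.58, 6.10 and 8.53 FPKM after BCAS against 9.51, 12.5, 9.25 and 11.5 after sham surgery, a difference of −0.53 ± 0.26 (adjusted p = 0.863, limma). Zbtb16 on day 7 under AL read 1.44, 0.397, 0.688 and 0.402 FPKM after BCAS against 1.02, 0.886, 2.26 and 3.36 after sham surgery, −0.69 ± 0.24 (adjusted p = 0.0932, limma), with overlap. Tsc22d3 on day 7 under IF differed by 0.43 ± 0.20 (adjusted p = 0.614, limma), also with overlap.

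Whether the diet difference depended on surgery was tested by an interaction term. It called 0 of 6 members over the days, against 0.0127% of all genes, and 0 of 6 on each day, against 0%, 0.0318%, 0%, 0% and 0%. The unadjusted counts for members in limma were 0, 1, 2, 1 and 0 by day, and 927, 1837, 886, 697 and 1016 over the 15707 genes. The difference of the 2 diet differences for Fkbp5 was 0.19 ± 0.17 over the days (adjusted p = 0.999, limma). On day 14 it was 1.14 ± 0.36, with an unadjusted p of 0.0026 and an adjusted p of 0.663 in limma. The calls after BCAS are thus not shown to be particular to BCAS.

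The third comparison was across days within each arm. Fkbp5 and Tsc22d3 changed over the days in BCAS IF, and Zbtb16 in sham AL. The F test of day called 2 of 6 members in BCAS IF (5.23% of all genes), 1 of 6 in sham AL (17.3%), 0 in BCAS AL (4.48%) and 0 in sham IF (1.88%). At an unadjusted p under 0.05 in limma, 4 members passed in BCAS IF, 4 in sham AL, 2 in sham IF and 0 in BCAS AL. So did 3224, 5337, 2762 and 2802 of the 15707 genes in the same order. Day 1 against the later days called no member in any arm. It called 8.12% of all genes in sham AL, 1.31% in BCAS AL, 0.331% in sham IF and 1.67% in BCAS IF. The unadjusted counts of members for that contrast were 1 in sham AL, 0 in BCAS AL, 2 in sham IF and 3 in BCAS IF. Over all 15707 genes the unadjusted counts were 3889, 1836, 1844 and 2077 in the same order.

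In BCAS IF, Fkbp5 read 19.2 ± 1.25 FPKM on day 1 (SD, n = 4), 15.0 ± 4.04 on day 7, 15.0 ± 6.04 on day 14, 7.09 ± 1.05 on day 21 and 12.9 ± 5.37 on day 30 (adjusted p = 0.0060, limma F test). The day 21 libraries, at 6.10 to 8.53 FPKM, lay below all libraries of days 1, 7 and 14, while day 30 ran from 6.97 to 19.1 and overlapped them. Tsc22d3 read 39.1 ± 8.73, 49.7 ± 14.0, 46.1 ± 9.78, 24.8 ± 4.62 and 37.8 ± 9.54 FPKM on the same days (adjusted p = 0.0044, limma F test). Its day 21 libraries, 19.7, 27.4, 22.2 and 29.8 FPKM, lay below all libraries of days 1, 7 and 14. Both calls held with the clock score as a covariate, at adjusted p values of 0.0391 and 0.0216 in limma. Both were lost when only the groups compared were fitted, at 0.0564 and 0.083.

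In sham AL, Zbtb16 read 0.808 ± 0.283 FPKM on day 1, 1.88 ± 1.16 on day 7, 1.32 ± 0.902 on day 14, 0.744 ± 0.511 on day 21 and 0.455 ± 0.172 on day 30 (SD, n = 4; adjusted p = 0.0318, limma F test). The day 7 mean rests on replicates 3 and 4, at 2.26 and 3.36 FPKM, against 1.02 and 0.886. The call was lost without either of those libraries (adjusted p = 0.0774 and 0.195, limma) or without sham AL day 30 replicate 4 (adjusted p = 0.0650, limma), without the 3 libraries rich in short genes (adjusted p = 0.190) and with a brain tissue score as a covariate (adjusted p = 0.211), both in limma.

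The low day 21 of BCAS IF was shared by other genes known to be induced by glucocorticoids, a count made after the members' values had been seen. Of 25 such genes, 20 (80%) had their lowest BCAS IF day mean on day 21, as did 5 of the 6 members (83.3%), against 24.0% of the 15707 genes tested. The list was chosen with earlier results of these data known, so these shares are a description and not a test. Some gaps were small, such as 5.75 FPKM on day 21 against 5.79 on day 7 for Bcl6. In sham IF the shares were 15 of 25 (60%) and 3 of 6 against 25.1%. In sham AL they were 3 of 25 (12%) and 0 of 6 against 14.3%, and in BCAS AL 3 of 25 (12%) and 0 of 6 against 14.1%. The F test of day called 2 of the 25 in sham AL (17.3% of all genes), 5 in BCAS AL (4.48%), 0 in sham IF (1.88%) and 11 in BCAS IF (5.23%). Those 11 were Per1, Klf9, Pdk4, Ddit4, Angptl4, Nfkbia, Mertk, Crispld2, Glul, Map3k6 and Fam107a. All but Crispld2 were lowest on day 21, and 6 were highest on day 1.

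Fam107a, a stress-induced actin regulator, read 44.7, 43.1, 40.5, 17.4 and 34.9 FPKM on days 1, 7, 14, 21 and 30 of BCAS IF (adjusted p = 0.00078, limma F test). Angptl4, a lipoprotein lipase inhibitor, read 12.2, 13.2, 8.58, 3.18 and 9.33 FPKM (adjusted p = 0.0047, limma F test). The kinase gene Map3k6 read 11.3, 8.92, 9.21, 3.82 and 7.91 FPKM (adjusted p = 0.0040, limma F test). On day 21 of BCAS IF the clock score was 4.02 ± 0.20, below the means of 4.31 to 4.44 on the other days, and the brain tissue score was 2.42, above their 2.09 to 2.31. The part of these scores in the low day 21 was not tested for the list of 25.

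**Figure D4:**
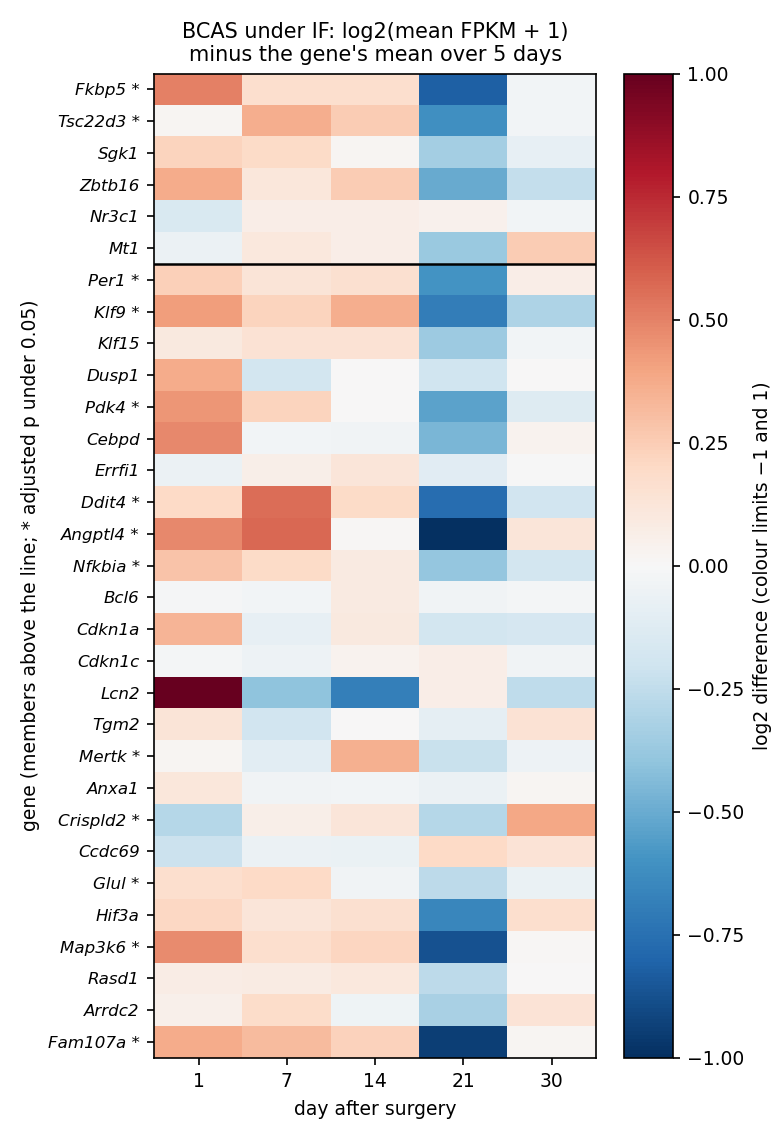
Heat map of BCAS IF day means for the 6 tested members and 25 other glucocorticoid-induced genes (rows) over 5 days (columns), as log2(FPKM + 1) minus the gene's mean over the days, with colours limited to −1 to 1 and asterisks on genes with an adjusted p below 0.05 for day. The day 21 column is the lowest for 5 of the 6 members and 20 of the 25 other genes.

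Genes of the receptor's partners were mostly lower under IF where they were called. Of 13 partner genes, 9 were called after sham surgery, 1 higher and 8 lower under IF, and 8 after BCAS, 1 higher and 7 lower, against 23.7% and 23.1% of all genes called. The chaperone genes Hspa8 (−0.68 sham, −0.77 BCAS, log2) and Hsp90ab1 (−0.46 and −0.48), Stip1 (−0.50 and −0.49), a linker of the 2 chaperones, and Ppid (−0.27 and −0.32), a cyclophilin, fell under both surgeries. The gene that rose was Nr3c2, which encodes the mineralocorticoid receptor, by 0.11 after sham surgery and 0.21 after BCAS. Of 4 tested genes of hormone handling, Hsd11b1, which regenerates active glucocorticoid, rose by 0.21 ± 0.07 after sham surgery (adjusted p = 0.0233, limma), and 0 of 4 were called after BCAS.

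Of the 25 other induced genes, diet called 11 after sham surgery (8 higher, 3 lower under IF) and 12 after BCAS (8 higher, 4 lower). Of all genes, 23.7% and 23.1% were called, 11.8% and 11.2% as higher. Fam107a rose by 0.40 ± 0.11 after sham surgery (adjusted p = 0.0045, limma) and 0.53 ± 0.11 after BCAS (adjusted p = 0.00014, limma). Per1, which is also a clock gene, rose by 0.59 and 0.61. Cdkn1a, a cell cycle inhibitor, fell by 0.58 and 0.86, and Errfi1, an inhibitor of EGF receptor signalling, fell by 0.38 and 0.37. Surgery called 1 of the 25 under each diet, against 0.987% (AL) and 0.758% (IF) of all genes: Crispld2, a secreted protein, was 0.47 ± 0.05 higher after BCAS under AL (adjusted p = 2.45e-08, limma) and 0.58 ± 0.05 higher under IF (adjusted p = 2.44e-11, limma).

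Of 8 tested inflammatory genes that glucocorticoids repress, 4 fell under IF after sham surgery and 2 after BCAS, and none rose. Of all genes, 23.7% and 23.1% were called, and the share after BCAS was near that. Il1b, an inflammatory cytokine, fell by 0.32 under each surgery. Its mean was 0.661 FPKM in sham AL and 0.654 in BCAS AL, against 0.295 and 0.318 under IF. Sele, called after sham surgery only, read 0.569 and 0.301 FPKM under AL and 0.0969 and 0.0814 under IF. Such low genes can pass the filter through the diet where they are high, so their falls are not independent of it. Of 8 tested genes of metal response, 4 fell under each surgery and none rose, among them the zinc importer gene Slc39a14 (−0.20 sham, −0.23 BCAS) and Mtf1, which encodes the metal sensor of the response cores printed above (−0.16 and −0.13). The sign of these differences was opposite to that of Mt1 after BCAS. Among 7 tested relatives and substrates of Sgk1, diet called 2 under each surgery, a share near that of all genes (23.7% and 23.1%). Of these, Foxo3, a transcription factor that SGK kinases inhibit, was lower in both (−0.17 and −0.11), while Ndrg1, which encodes an SGK1 substrate, was higher after sham surgery (0.11) and Pdpk1, the gene of an activating kinase, lower after BCAS (−0.14). Surgery also called Ndrg1, higher after BCAS by 0.21 under AL (adjusted p = 5.4e-07, limma) and 0.14 under IF (adjusted p = 0.0020, limma). Under AL, surgery called the zinc exporter gene Slc30a1 (0.21, adjusted p = 0.0410) and the manganese exporter gene Slc30a10 (−0.13, adjusted p = 0.0427), both in limma. These were 2 of 8 of the metal response list, against 0.987% of all genes. Under IF neither was called by surgery (adjusted p = 0.740 and 0.469, limma). By diet, Tsc22d2, 1 of 3 other genes of the Tsc22 family, was lower under IF (−0.15 sham, −0.09 BCAS), opposite in sign to Tsc22d3. None of these lists had a member called for the interaction.

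Within groups, the members did not all move together. Each library's deviation from its group mean was correlated over the 78 libraries, and 11 of 21 pairs passed an adjusted permutation p of 0.05. The share that passes among pairs of other genes was not measured. Ehd3, Fam107a and Pfkfb3, the genes most like Fkbp5 over the group means, had within-group r of 0.71, 0.78 and 0.39 with it. The pairs that passed include Mt1 with Mt2 (r = 0.43), although Mt2 was at 0 in 34 libraries. Fkbp5 and Zbtb16 varied together (Pearson r = 0.68, Spearman rho = 0.69), at 0.75 in sham AL, 0.66 in BCAS AL, 0.91 in sham IF and 0.51 in BCAS IF. Tsc22d3 and Sgk1 formed a second pair (r = 0.69, rho = 0.72). Fkbp5 and Sgk1 did not pass (r = 0.24, rho = 0.28, adjusted permutation p = 0.145), nor did Sgk1 and Zbtb16 (r = −0.02, adjusted permutation p = 0.924). Fkbp5 and Tsc22d3 lay between (r = 0.54, rho = 0.56).

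Nr3c1 ran against 3 other members in the same deviations. Its r was −0.76 with Mt1 (rho = −0.71), −0.49 with Fkbp5 (rho = −0.53) and −0.30 with Tsc22d3. Fkbp5 and Mt1 had an r of 0.59 and a rho of 0.59. Without the 2 libraries farthest from the median, r was 0.65 for Fkbp5 and Zbtb16, 0.69 for Tsc22d3 and Sgk1, and −0.72 for Nr3c1 and Mt1. Without the 3 libraries rich in short genes it was 0.71, 0.70 and −0.69. The adjusted permutation p of these 3 pairs was 4.2e-05, which follows from 1e-05, the smallest p that the 100000 permutations can give. Within groups, the share of fragments in short genes had an r of 0.44 with Nr3c1 (rho = 0.23) and −0.37 with Mt1 (rho = −0.02), neither past the adjusted threshold. Without the 2 libraries farthest from the median of that share, r was 0.27 and −0.21. The part of that share in the relation of Nr3c1 and Mt1 was not tested beyond leaving out the 3 libraries rich in short genes.

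**Figure D5:**
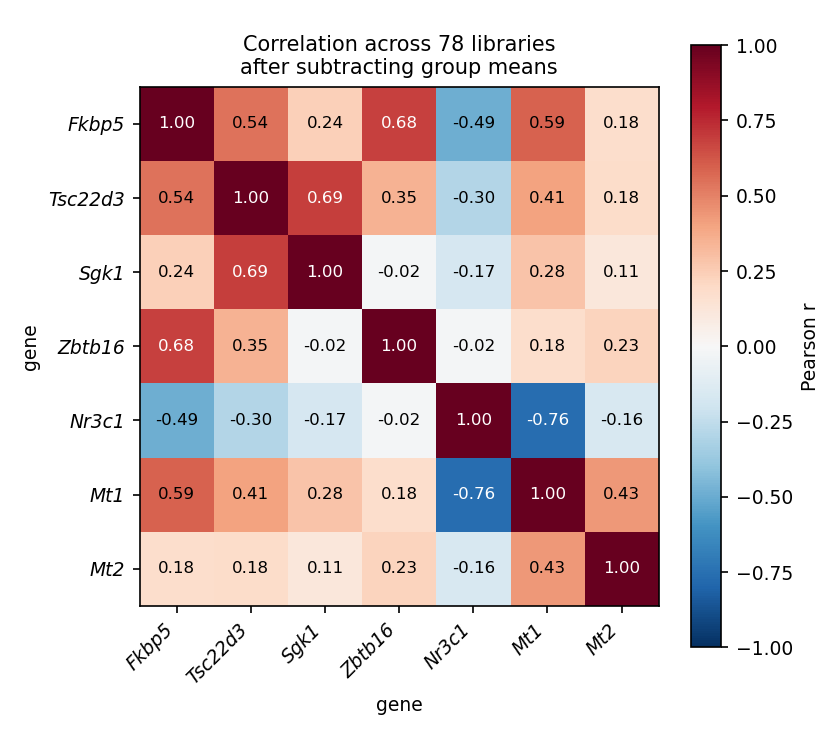
Matrix of Pearson r between the 7 genes over 78 libraries, each value the correlation of deviations in log2(FPKM + 1) from the group means; the colour scale runs from −1 to 1. The strongest positive cells are Tsc22d3 with Sgk1 (0.69) and Fkbp5 with Zbtb16 (0.68), and the strongest negative cell is Nr3c1 with Mt1 (−0.76).

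Over the 20 group means, the genes most like each member were listed from 12451 tested protein-coding genes by Pearson r, as a description. For Fkbp5 they were Ehd3 (0.944), which encodes an endosomal trafficking protein, Fam107a (0.918) and Pfkfb3 (0.893), a regulator of glycolysis. For Tsc22d3 they were Tob2 (0.892), Map2k4 (0.884) and Sik1 (0.881), and Sgk1 stood 24th (0.814). For Sgk1 they were Osbpl9 (0.898), Fam204a (0.870) and Loxl3 (0.859). For Zbtb16 they were Atg9a (0.877), Efna5 (0.865) and Jade2 (0.850), for Mt1 Trappc6a (0.799), Pgls (0.798) and Cdadc1 (0.790), and for Nr3c1 Scd2 (0.814), Anapc1 (0.787) and Col4a5 (0.774). The 20 means share diet, surgery and day, and for Fkbp5 the list includes 1 of the 25 other induced genes, Fam107a, while the lists of the other members include none.

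The table places Nr3c1 on chromosome 18 (39410545 to 39491301, minus strand), Fkbp5 on chromosome 17 (28399094 to 28517527, minus), Tsc22d3 on X (140539528 to 140600659, minus), Sgk1 on chromosome 10 (21882184 to 21999903, plus), Zbtb16 on chromosome 9 (48654297 to 48836222, minus), Mt1 on chromosome 8 (94179082 to 94180327, plus) and Mt2 on chromosome 8 (94172664 to 94173568, plus). The build is not given in the sources used here. For 6 of the 7 genes these positions equal those of GENCODE M21 on GRCm38, and Nr3c1 ends at 39519421 there.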

How the data were processed

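Artery RNA (RNeasy kit, 2 ug per library) was made into libraries at Novogene, per the labels' protocols. The submitters' processing notes name DESeq 1.10.1, without its role. Aligner, counter, genome build, annotation and strandedness are not given in the sources used here. The authors deposited FPKM per gene and library. Multiplied by gene length and each library's scale, 100% of values under 1000 fragments came within 0.05 of a whole number, which gave the depths. No libraries were identical. FPKM were tested with limma 3.58.1 (R 4.3.3, statmod 1.5.0, the R package data.table, version 1.17.8; trend and robust) on log2(FPKM + 1), 1 mean per group, for the 15707 genes that reached 1 FPKM in 3 or more libraries. The scripts were tested on simulated data. Correlations used 100000 permutations within groups.

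Named genes are the 7 members, up to 3 called genes per pathway list and comparison with the smallest p, the 3 genes most like each member, and markers. Fam107a, Angptl4, Map3k6, Hsd11b1, Nr3c2, Mt3, the cell type markers and the genes called across days in BCAS IF were named after their values were seen, and Gm45774 for its position. Members and lists were chosen with earlier results of these data known. Of 54532 gene IDs, 54409 are in GENCODE M21, 98.26% of them at the same coordinates. Alternatives were the pseudocount (0.1), filters, scaling, limma-voom on recovered fragments, only the groups compared, covariates, days and single libraries left out. Leaving out day 14, 21 or 30 was chosen after seeing the data. Replicate numbers follow accession order and pair nothing. Promoters come from RefSeq.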

Additional observations from a re-analysis of the deposited data

Results flagged for a closer look

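In each of 126 groups of 4 libraries per gene, the highest or lowest library was compared with the others by its gap over the group's range, a rule that chance meets in about 1 group in 20. It picked 6. Tsc22d3 in sham AL day 30 replicate 4 read 22.8 FPKM, below the other 3 libraries at 28.8 to 29.6. Tsc22d3 in BCAS AL day 14 replicate 1 read 56.1 FPKM, above the others at 27.0 to 31.8.

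The other 4 were Mt2 in groups whose remaining libraries were all at 0: 0.668 FPKM in sham AL day 7 replicate 3, 0.278 in BCAS AL day 14 replicate 1, 0.428 in replicate 1 of BCAS AL day 21 and 0.231 in replicate 3 of BCAS IF day 1.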

How the results depend on the processing

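No paired analysis was possible because the replicate numbers follow accession order only. Averaged over the days, the counts of members called for surgery and for the interaction were 0 under every alternative run. Of 1860 surgery values by day, diet and setting, 3 were called, all Zbtb16 on day 7 under AL, without sham AL replicate 1, sham AL replicate 2 or BCAS AL replicate 1 of that day. The diet count in sham arteries (1) went to 0 with no filter, without the short-gene-rich libraries, with the clock score as covariate, without day 7 and without day 30, to 2 without day 21, and ran from 0 to 3 when single libraries were left out. The diet count after BCAS (4) went to 0 with the clock score and to 2 without day 14, and ran from 3 to 4 without single libraries. The count across days (3) went to 1 with only the groups compared and ran from 2 to 5 without single libraries. Signs reversed with the clock score for Fkbp5 in sham (−0.29) and BCAS (−0.14) and for Zbtb16 in BCAS (−0.087), and without day 1 for Zbtb16 in BCAS (−0.013) and Nr3c1 in sham (−0.00057). Nr3c1 in sham ran from −0.025 to 0.046 without single libraries. The cause was not tested.

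After BCAS, the Mt1 call was lost without day 7 (adjusted p = 0.104), 14 (0.0505) or 30 (0.167), all in limma. With only the groups compared, day calls were lost for Fkbp5 (0.0564) and Tsc22d3 (0.083) in BCAS IF, and the diet calls of Tsc22d3 on day 7 (0.128) and Fkbp5 on day 14 (0.0845). Fewer libraries enter that fit. The Fkbp5 call on day 14 was also lost with no filter (0.0513) and with the red cell score (0.0683), and Zbtb16 across days in sham AL with no filter (0.0619), quantile normalization (0.0557) and voom (0.0512). Gained in sham were Fkbp5 without day 14 (0.0365), Zbtb16 (−0.33) without day 1 (0.0443) and Mt1 without day 21 (0.0406). Requiring a mean of 1 FPKM left Zbtb16 untested. Zbtb16 and Mt2 rest on few fragments, which limits both. The count of 11 correlated pairs did not change by over 1.5 times.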
